A study of Mus musculus with 3 samples.

Results

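The genes described here are 34 components of B cell receptor signalling, out of 32285 genes counted in each cell. They were chosen by name, and their levels were read in splenic B cells. The measurement was single-cell RNA sequencing by the 10x Genomics 5′ method, in which each captured RNA molecule is counted once through a unique molecular identifier (UMI). Spleens came from mice aged 12 to 14 weeks, T cells had been depleted with CD3 microbeads, and cells of 3 mice per condition were pooled. Of the 3 libraries, each with 2 conditions, the control library combined male C57BL/6 mice carrying sham minipumps with female C57BL/6 mice. The Ang II library combined males of the same strain that received angiotensin II (Ang II) by minipump for 2 weeks from 10 weeks of age, with placebo or with 2-hydroxybenzylamine (2-HOBA), a scavenger of isolevuglandins. The B6.SLE123 library combined females of this lupus-prone strain given placebo or 2-HOBA for 6 weeks from 7 weeks of age. B6.SLE123 mice carry the Sle1, Sle2 and Sle3 lupus susceptibility intervals on the C57BL/6 background. Values for the libraries are given in the order control, Ang II and then B6.SLE123 unless stated.

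In each library the cells carried 6 hashtag antibodies, C0301 to C0306, and cells with the same hashtag are called a hashtag population below. The sources used here do not say which condition or mouse a hashtag marked, so the hashtag populations are not replicates of a condition, and 2-HOBA was not compared with placebo. Each group was 1 library, so differences between libraries have no replicate check. Strain, sex, batch of library and treatment cannot be told apart in them. The control library held both sexes, the Ang II library males and the B6.SLE123 library females, and only the last held the lupus-prone strain.

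The B cell receptor is a membrane immunoglobulin held by the CD79A and CD79B chains, whose tails are phosphorylated by SRC-family kinases when antigen binds. SYK and BTK then act with the adaptor BLNK on phospholipase C gamma, and the signal runs on to calcium, calcineurin and NFAT, to protein kinase C and NF-kappaB, to RAS and MAP kinases, and to phosphoinositide kinase and AKT. In the spleen this pathway sets how B cells survive, become activated and enter germinal centres, and its strength is kept in check by inhibitory receptors.

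B cells were taken as cells with at least 1 UMI of Cd79a and of Ms4a1 and none of Lyz2 or Cd3e. This gave 10381, 9716 and 10280 B cells, which was 66.1%, 69.3% and 61.5% of the cells kept. Their median depth was 1867, 2847 and 2127 UMIs per cell. The 8 B cell markers, among them Cd79a, Ms4a1, Pax5, Cd74, H2-Aa, Ebf1 and Cd37, were all detected in every library. For Cd79a and Ms4a1 the gate required this. The summed level of the 8 lay between 34864 and 39429 CPM (UMIs of a gene scaled to a total of 1000000). Natural killer (NK) cells, which lack the receptor, were cells with Ncr1 and Nkg7, 433, 341 and 517 in number. The 8 B cell markers were all detected in summed NK cells too, but at 965 to 1400 CPM, so the level and not detection separates the classes. Plasma cells, the antibody-secreting descendants of B cells, were cells with Sdc1, Jchain and Xbp1. There were only 9, 15 and 127 of them, so their levels in the control and Ang II libraries rest on few molecules. The NK and plasma cell gates left out any cell in the B cell gate. Cd79a and Ms4a1 set that gate, and they are described but not counted, which left 32 members for counts.

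All 3 libraries were read to a median of 1852 to 2842 UMIs per barcode, and 13.5%, 11.4% and 18.0% of barcodes within the limits carried several hashtags and were removed. Between 415 and 496 barcodes were shared by any pair of libraries. B6.SLE123 hashtag population C0303 stood apart, with 49.8% B cells among its kept cells and a median of 2765 UMIs per B cell, and results that rest on it are given without it.

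Genome sequence was read upstream of the members because several of them differed between cell classes. RefSeq promoter windows on GRCm38.p6 were found for 27 of the 34 members, in 42 windows of 250 bases before a start site. No window was found for Cd79b, Ms4a1, Blk, Nfatc1, Malt1, Mapk3 and Ppp3ca. Windows were searched on both strands for the core CCCNNGGG, which the B lineage factor EBF1 is known to bind, for the octamer ATGCAAAT, which is bound by OCT factors, and for GAGGAA, a core bound by PU.1. The EBF1 core was in 8 of the 42 member windows (19.0%), of the 6 members Akt1, Bank1, Cd81, Fyn, Vav1 and Vav3, and in 11.8% of all 32851 windows. These members did not share a direction. Against NK cells, as given below, Bank1 and Cd81 were higher in B cells, Fyn and Akt1 were lower, and Vav1 and Vav3 were not called. Against plasma cells Bank1, Fyn and Vav1 were higher, Cd81 was lower, and Akt1 and Vav3 were not called. The octamer was in 2 of the 42 (4.76%), of Blnk and Prkcb, and in 1.60% of all windows. Both octamers are upstream of a RefSeq start site but lie within an exon of the same gene in GENCODE vM21, so they are not printed. GAGGAA was in 12 of the 42 (28.6%) and in 23.3% of all windows. The whole Bank1 window is shown because Bank1 set B cells apart from both other classes. It lies at chr3:136326067-136326316 on the minus strand, with the EBF1 core in capitals, 21 to 14 bases before the start site. No GENCODE exon of Bank1 overlaps the window, and no other motif searched is in it. A match describes these letters and not a bound site.
Bank1: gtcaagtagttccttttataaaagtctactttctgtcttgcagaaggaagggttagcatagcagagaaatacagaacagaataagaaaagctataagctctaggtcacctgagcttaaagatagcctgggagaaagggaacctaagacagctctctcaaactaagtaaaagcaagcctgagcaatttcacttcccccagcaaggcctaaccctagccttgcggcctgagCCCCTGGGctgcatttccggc

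Levels in B cells were next set beside those in NK cells, to ask which components were specific to cells that carry the receptor. Of the 32 members counted, 16 were higher in B cells, 8 were lower and 8 did not pass the test (edgeR quasi-likelihood test with library as a block, Benjamini-Hochberg adjusted p under 0.05 over 8423 genes). Over all genes tested the share called was 39.3%, with 19.2% higher and 20.0% lower in B cells. The median log2 fold change of the members was 0.38, against 0.01 over all genes tested. The receptor chain, the B lineage kinases and the B lineage adaptors made up the largest differences, and the phosphoinositide kinase, AKT and MAP kinase members were higher in NK cells. In this and the next comparison levels are CPM of UMIs that were not from immunoglobulin genes, since immunoglobulin took 54.6% to 60.2% of the UMIs of plasma cells and 2.00% to 3.05% of those of B cells.

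**Figure D1:**
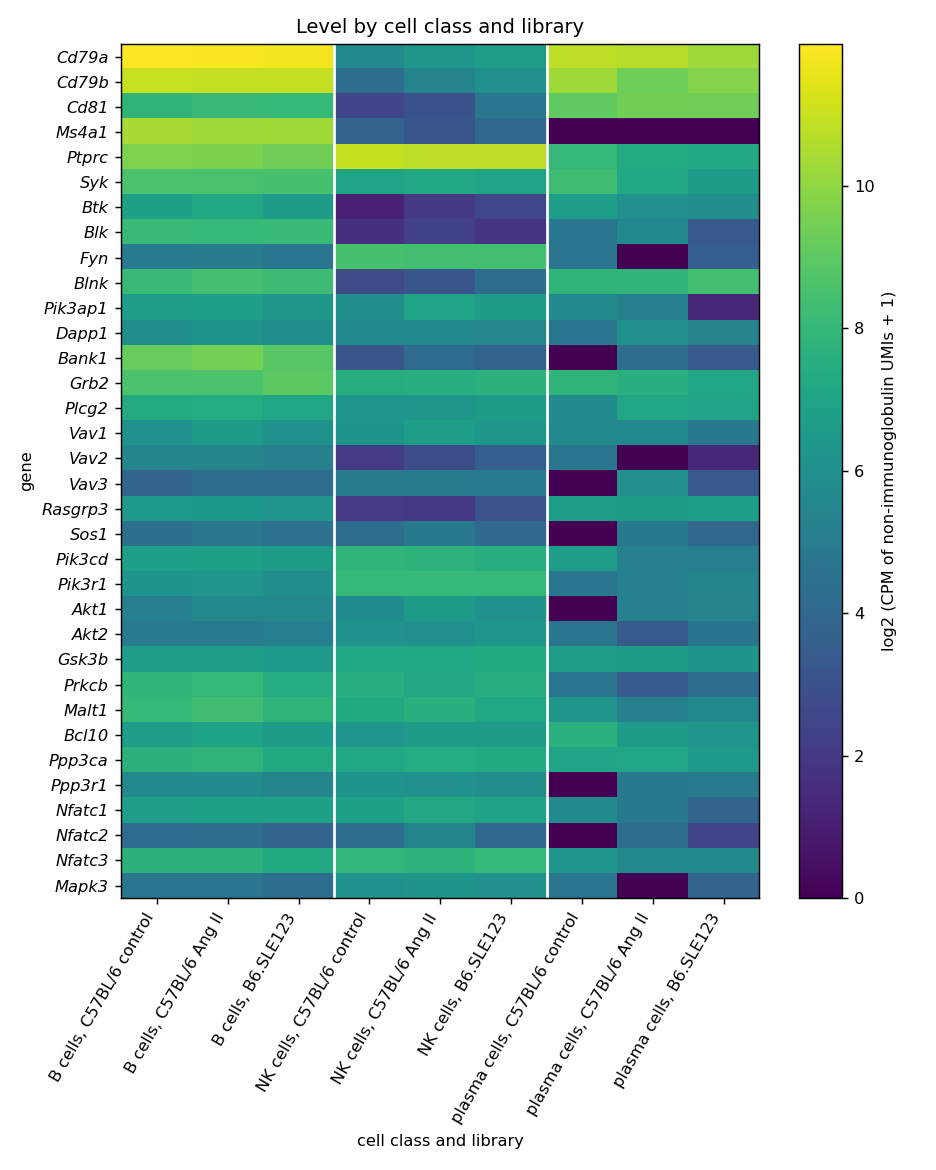
Levels of all 34 genes (rows, ordered by role) in B, NK and plasma cells of the 3 libraries (columns), as log2 of the CPM of non-immunoglobulin UMIs plus 1 (colour). Cd79b, Blk, Blnk, Btk and Bank1 are bright in the B cell columns and dark in the NK cell columns, Ptprc, Pik3r1 and Fyn are brightest in NK cells, and the darkest squares of the plasma columns rest on 0 UMIs.

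Among receptor and coreceptor genes, Cd79b (chromosome 11), the second signalling chain of the receptor, had 2041, 1907 and 1929.9 CPM in B cells and 18.4, 39.7 and 64.5 CPM in NK cells. The groups did not overlap, and the log2 fold change was 5.83 (SE 0.47, edgeR adjusted p = 2.05e-06). Cd81, a tetraspanin of the B cell coreceptor, had 229 to 279 CPM in B cells and 4.60 to 24.8 CPM in NK cells, a log2 fold change of 4.69 (SE 0.37, edgeR adjusted p = 1.78e-06). Ptprc, which encodes the phosphatase CD45 of all leukocytes, was lower in B cells (676 to 817 CPM) than in NK cells (1761 to 1973 CPM). Its log2 fold change was -1.11 (SE 0.28, edgeR adjusted p = 0.00892), and its adjusted p was 0.0520 without the control library and 0.109 without the Ang II library. The gate genes Cd79a and Ms4a1 had 3468 to 4079.9 and 1209 to 1376 CPM in B cells.

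Of the kinases, Blk, a SRC-family kinase of B cells, had 271, 264 and 272 CPM in B cells and 2.30, 4.08 and 2.48 CPM in NK cells. Its log2 fold change of 6.64 (SE 0.31, edgeR adjusted p = 2.12e-08) was the largest of the 32 members in this comparison. Btk, the TEC-family kinase on the X chromosome, had 115, 142 and 95.8 CPM in B cells and 1.15, 3.06 and 4.96 CPM in NK cells, and its log2 fold change was 5.45 (SE 0.28, edgeR adjusted p = 4.85e-08). The NK values of Blk and Btk rest on 1 to 4 UMIs per library. Syk, which NK cells also use, was 3.15-fold higher in B cells (SE 0.21 on the log2 scale, edgeR adjusted p = 7.77e-05). Fyn, a SRC-family kinase of T and NK cells, went the other way, with 25 to 31.9 CPM in B cells and 326 to 363 CPM in NK cells, a log2 fold change of -3.39 (SE 0.14, edgeR adjusted p = 1.07e-08). Blk and Fyn separated the classes in opposite directions with no overlap in any library.

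Among the adaptors, Bank1, a scaffold for B cell calcium signalling, had 598, 727 and 477 CPM in B cells and 8.05, 17.3 and 13.6 CPM in NK cells. Its log2 fold change was 5.70 (SE 0.27, edgeR adjusted p = 2.80e-08). Blnk, which links SYK to BTK and phospholipase C, had 272 to 355 CPM in B cells and 5.75 to 18.6 CPM in NK cells, a log2 fold change of 5.07 (SE 0.29, edgeR adjusted p = 1.04e-07). Grb2, a general adaptor to RAS, differed less, with 385 to 499.7 CPM against 176 to 206 CPM, and was 2.52-fold higher in B cells (edgeR adjusted p = 0.000320). Dapp1, an adaptor that binds phosphoinositides, was 1.48-fold higher (edgeR adjusted p = 0.0154, and 0.145 without the Ang II library). Pik3ap1, an adaptor for phosphoinositide kinase, had 80.9 to 108 CPM in B cells and 62.1 to 128 CPM in NK cells and did not pass the test (edgeR adjusted p = 0.586).

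Of the phospholipase and the exchange factors, Rasgrp3, which activates RAS in B cells, had 74.4 to 87.2 CPM in B cells and 3.06 to 7.44 CPM in NK cells, and was 20.1-fold higher (edgeR adjusted p = 2.27e-07). Vav2 was 6.75-fold higher (edgeR adjusted p = 4.26e-05) and Plcg2, the phospholipase C of B cells, 2.08-fold higher (edgeR adjusted p = 0.000392). The NK values rest on 3 to 6 UMIs of Rasgrp3 and 3 to 9 of Vav2 per library, so these fold sizes are rough. Those of Cd81, Blnk and Bank1 above rest on 4 to 20 UMIs per library. Vav1 (68.7 to 90.6 CPM against 73.6 to 102 CPM), Vav3 and Sos1 did not pass. The 3 Vav genes encode guanine nucleotide exchange factors, and of these only Vav2 was called in this fit. Vav3 was near the threshold (log2 fold change -0.73, edgeR adjusted p = 0.0690). It was called lower in B cells under some other settings but not all. Its edgeR adjusted p was 0.0295 with immunoglobulin genes left out and 0.0204 without the B6.SLE123 library.

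The phosphoinositide kinase and AKT group had 5 of 5 members lower in B cells. Pik3r1, the regulatory subunit, had 72.3, 76.0 and 57 CPM in B cells and 259, 261 and 265 CPM in NK cells, a log2 fold change of -1.78 (SE 0.13, edgeR adjusted p = 7.12e-07). The catalytic subunit gene Pik3cd was 1.78-fold lower (edgeR adjusted p = 0.000202), Akt2 1.99-fold lower (edgeR adjusted p = 0.000148), Akt1 1.47-fold lower (edgeR adjusted p = 0.0229) and Gsk3b, a kinase that AKT inhibits, 1.38-fold lower (edgeR adjusted p = 0.00670). Mapk3, the MAP kinase ERK1, was 2.65-fold lower (edgeR adjusted p = 5.06e-05). The calls of Akt1 and Gsk3b were lost without the control library (edgeR adjusted p = 0.0641 and 0.0535) and without the Ang II library (0.206 and 0.0551).

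The members that lead to NF-kappaB differed less. Malt1, a paracaspase, was 1.85-fold higher in B cells than in NK cells (edgeR adjusted p = 0.000397), and its partner Bcl10 1.36-fold higher (edgeR adjusted p = 0.0336). Prkcb, the protein kinase C beta of B cells, had 239, 252 and 168 CPM in B cells and 181, 152 and 183 CPM in NK cells, so that the B6.SLE123 B cells lay inside the NK range, and it was 1.42-fold higher over the 3 libraries (edgeR adjusted p = 0.0231). Without the Ang II library the adjusted p of Prkcb was 0.332 and that of Bcl10 0.173, and without the control library they were 0.136 and 0.139. The calcineurin catalytic subunit Ppp3ca was 1.39-fold higher (edgeR adjusted p = 0.0121, 0.120 without the control library and 0.181 without the Ang II library). Its regulatory subunit Ppp3r1 and the NFAT genes Nfatc1, Nfatc2 and Nfatc3 did not pass.

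Droplets also hold free RNA, so the share of cells with a UMI was set beside that in neutrophils. With every cell thinned to 1000 UMIs, Bank1 was found in 44.4%, 50.5% and 39.0% of B cells, in 0.74% to 1.79% of NK cells and in 2.60% to 3.50% of neutrophils, which should lack it. Before thinning these neutrophils had Bank1 at 23.4 to 71.3 CPM. For Cd79b the thinned share was 81.8% to 84.1% of B cells, 0.74% to 3.21% of NK cells and 4.22% to 5.73% of neutrophils. The NK cell shares of Bank1 and Cd79b were thus below those of neutrophils. Free RNA and doublets within a hashtag cannot be told apart in these shares, and their source was not tested. Fyn was found in 25.9% to 30.1% of NK cells and 2.43% to 3.15% of B cells. The NK cells of the B6.SLE123 library held 3.64% immunoglobulin UMIs against 0.0371% and 0.0656% in the control and Ang II libraries, with summed plasma cell markers of 2108 CPM against 87.4 and 128 CPM. Without this library 25 members were called in place of 24.

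Of the 59 other genes of the pathway listed for comparison (coreceptors, inhibitory receptors, NF-kappaB, RAS and MAP kinases and calcium channels), 56 could be tested against NK cells. Of these 22 were higher in B cells and 12 lower. Among the highest were Cr2, a complement receptor (log2 fold change 6.55, SE 0.24, edgeR adjusted p = 4.24e-09), and the inhibitory lectin Cd22 (5.69). The lowest were Pik3cb (-4.09), Fos (-2.21) and Sos2 (-1.58).

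The comparison with plasma cells asked which components differ once a B cell secretes antibody. Of the 32 members, 16 were higher in B cells, 1 was lower and 15 did not pass the test (same fit and threshold). Over all genes tested 32.8% were called, 16.6% higher and 16.2% lower in B cells. The median log2 fold change of the members was 0.86, against 0.15 over all genes tested. Of the 3 protein kinase C and NF-kappaB members Prkcb and Malt1 were higher in B cells and Bcl10 was not called (log2 fold change 0.12, edgeR adjusted p = 0.711). Of the 5 calcineurin and NFAT members Ppp3ca, Nfatc1 and Nfatc3 were higher, and Ppp3r1 (0.49, edgeR adjusted p = 0.291) and Nfatc2 (1.05, edgeR adjusted p = 0.266) were not called. The adaptors Bank1 and Pik3ap1 and the phosphatase gene Ptprc were higher, and Blnk, Plcg2 and Rasgrp3 were not called.

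**Figure D2:**
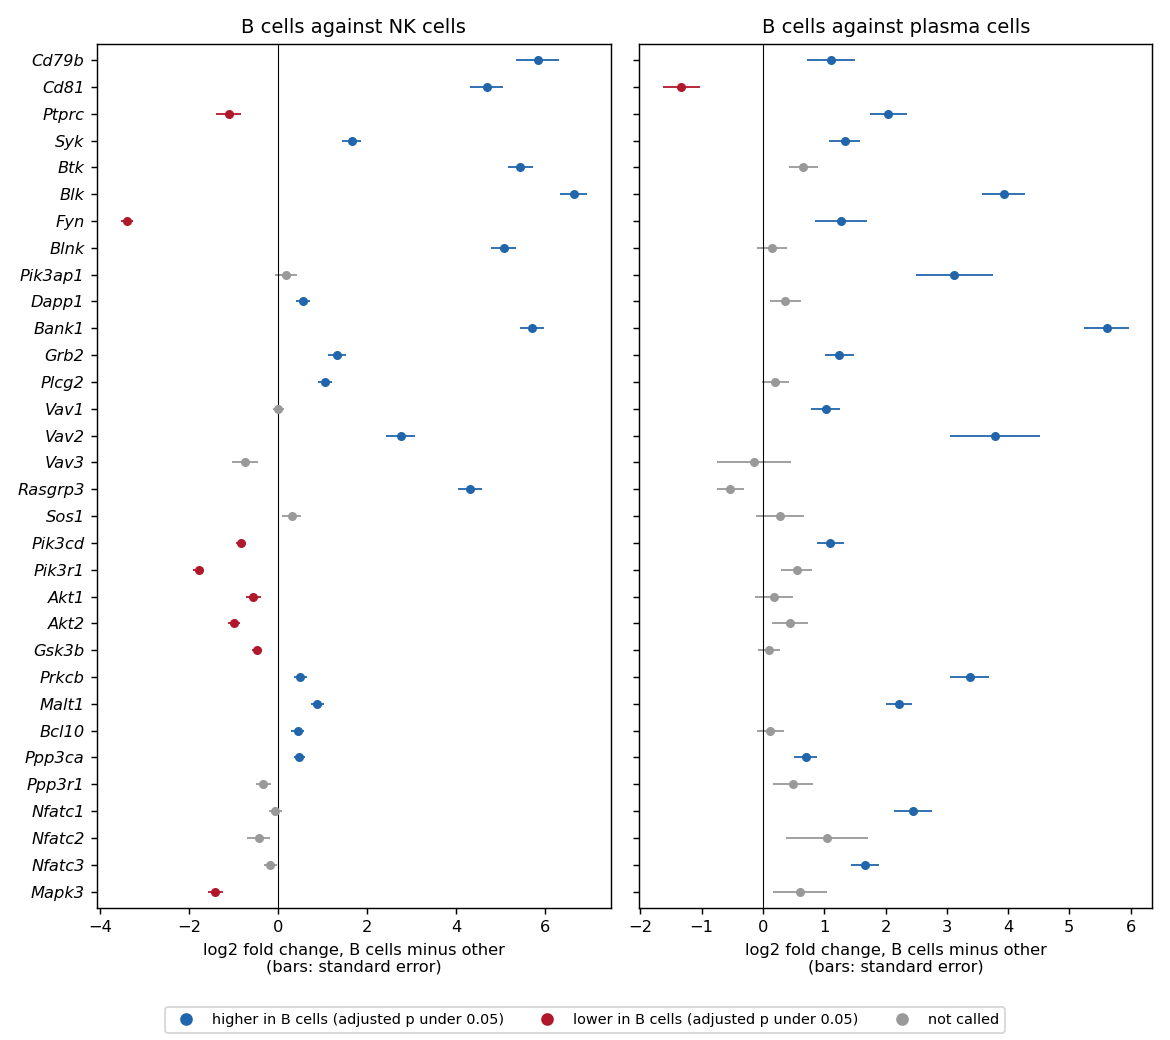
Log2 fold change of the 32 members counted, B cells minus NK cells (left) and B cells minus plasma cells (right), from the edgeR fit over 9 sums of 3 libraries. Points are fitted values, bars are standard errors, blue is higher and red lower in B cells at an adjusted p under 0.05, and grey is not called; Cd81 is the 1 member lower in B cells than in plasma cells.

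Bank1 had 598, 727 and 477 CPM in B cells and 0, 18.8 and 9.26 CPM in plasma cells, and its log2 fold change was 5.61 (SE 0.37, edgeR adjusted p = 1.78e-06). Prkcb had 168 to 252 CPM against 25.3, 9.41 and 18.5 CPM, a log2 fold change of 3.38 (SE 0.32, edgeR adjusted p = 1.80e-05). The plasma values of these genes rest on 1 UMI of Prkcb in each of the control and Ang II libraries and on 6 of Bank1 and 12 of Prkcb in the B6.SLE123 library. Both were far below their B cell levels in every library.

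Malt1 was 4.66-fold (edgeR adjusted p = 2.29e-05), Nfatc1 5.48-fold (edgeR adjusted p = 0.000139) and Nfatc3 3.17-fold (edgeR adjusted p = 0.000299) higher in B cells than in plasma cells. The NFAT factors move to the nucleus after calcineurin acts on them. Blk was 15.2-fold higher (edgeR adjusted p = 1.21e-05), Syk 2.52-fold (edgeR adjusted p = 0.00214), Grb2 2.37-fold (edgeR adjusted p = 0.00228) and Ptprc 4.12-fold (edgeR adjusted p = 0.000431). Pik3ap1, Vav2, Pik3cd, Vav1, Ppp3ca, Fyn and Cd79b were also called higher, with adjusted p from 0.00230 to 0.0495. These 7 calls were lost without the B6.SLE123 library, which holds most of the plasma cells, with adjusted p from 0.0548 (Cd79b) to 0.305 (Vav1). The calls of Cd79b, Fyn and Ppp3ca were lost as well without the control library (edgeR adjusted p = 0.05003, 0.0607 and 0.0520) and without the Ang II library (0.226, 0.151 and 0.0668).

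Cd81 was the member that was higher in plasma cells, with 532, 687 and 681 CPM against 229, 279 and 260.2 CPM in B cells. The groups did not overlap, and the log2 fold change was -1.33 (SE 0.31, edgeR adjusted p = 0.00653). With cells thinned to 1000 UMIs, which left 3, 2 and 26 plasma cells, it was -0.37 (edgeR adjusted p = 0.626). With the limits on cells read as UMIs, 1, 0 and 9 plasma cells were left and held no Cd81 UMI. Under that setting 8 members were called in place of 17. Blnk stayed at 226 to 332 CPM in plasma cells and 272 to 355 CPM in B cells (log2 fold change 0.15, SE 0.24, edgeR adjusted p = 0.685). Rasgrp3 had 94.1 to 109.6 CPM in plasma cells and 74.4 to 87.2 CPM in B cells (log2 fold change -0.53, SE 0.22, edgeR adjusted p = 0.0857). Btk was close to the threshold, with 57.1 to 101 CPM in plasma cells and a log2 fold change of 0.66 (SE 0.23, edgeR adjusted p = 0.0503). Of 56 other pathway genes tested, 27 were higher in B cells and 4 lower, the lowest being the AP-1 genes Fos (-4.52, SE 0.33, edgeR adjusted p = 3.18e-06) and Jun (-3.41) and the RAS gene Hras (-1.09).

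The B cells of the B6.SLE123 library were then set against those of the control library, to ask whether the pathway differed in lupus-prone mice. No member of the 32 passed a 1.5-fold difference in CPM, while 17.9% of the 11261 genes with 50 or more UMIs over both libraries did (10.2% higher and 7.71% lower). Among the 6442 genes with at least the 774 UMIs of the lowest member that share was 9.21%. Small differences were mostly toward lower levels, with 24 members below and 8 above 0 and a median log2 ratio of -0.21 (quartiles -0.30 and 0.01), against -0.06 over all genes tested. Of all 11261 genes tested, 6311 were below and 4950 above 0, so most genes shared the direction. With TMM scaling the median was -0.17 and 23 members were below 0, against a median of -0.017 over all genes. Whether the members' shift was larger than that of all genes was not tested. No test was possible with 1 library per group, the intervals below are exact 95% intervals that cover counting error only, and in summed cells a lower level per cell and fewer cells of a B cell subset cannot be told apart.

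**Figure D3:**
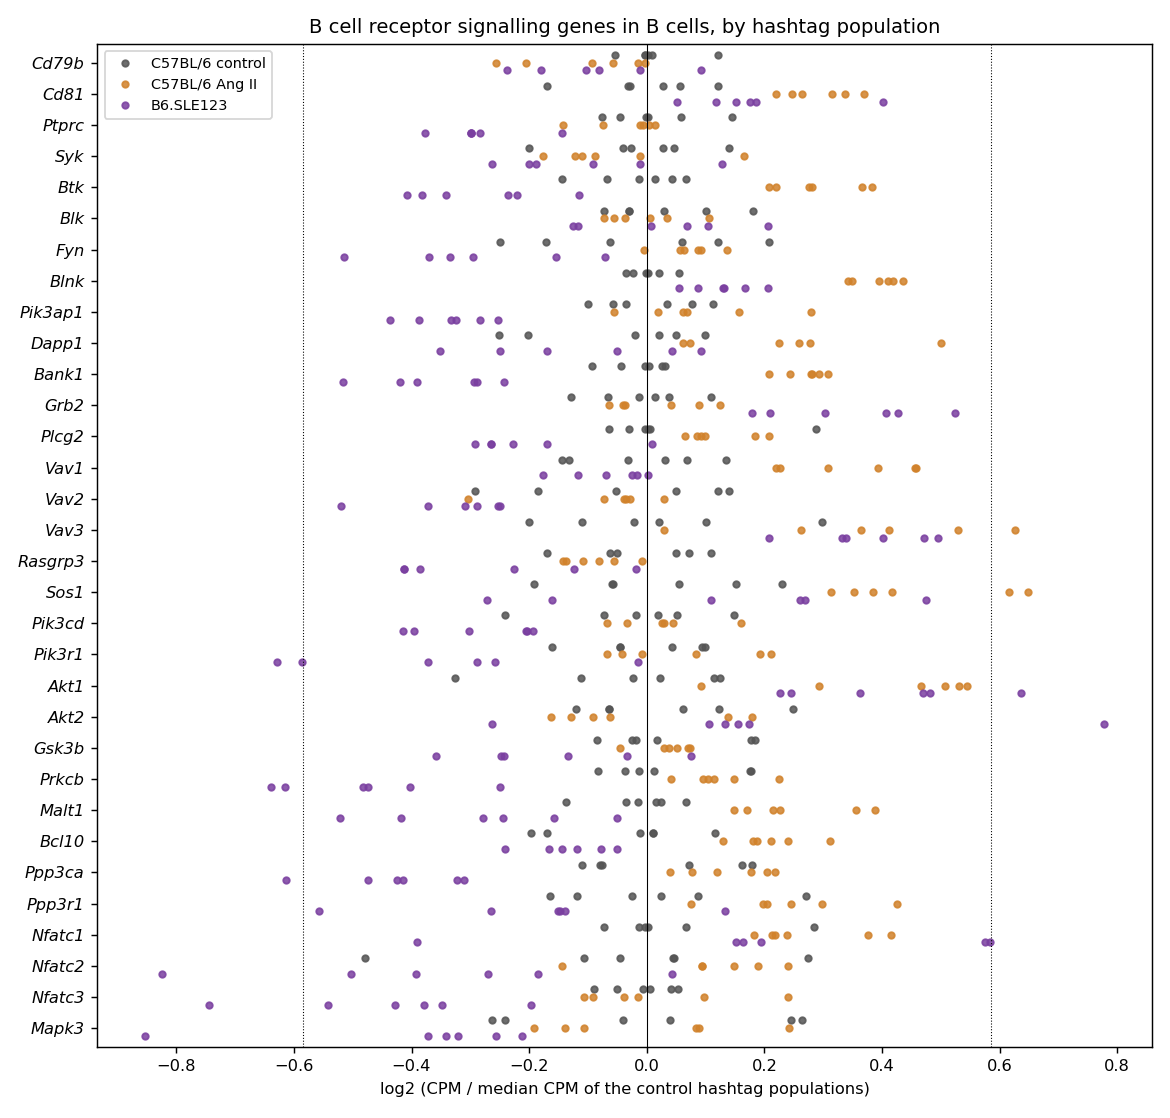
Level of each of the 32 members in B cells of each hashtag population, as log2 of its CPM over the median CPM of the 6 control populations (grey control, orange Ang II, purple B6.SLE123; dotted lines mark a 1.5-fold difference). The B6.SLE123 points of Prkcb, Ppp3ca, Nfatc3, Bank1, Pik3ap1 and Ptprc lie wholly to the left of the control points and those of Grb2, Akt1 and Blnk wholly to the right, while the Ang II points of 8 genes lie wholly to the right.

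All 6 B6.SLE123 hashtag populations lay below all 6 control populations for 6 members and above them for 3. Over all genes tested 20.0% had populations that did not overlap, 10.7% below and 9.29% above, and among the genes with at least the UMIs of the lowest member 26.6%. The members' 9 of 32 is near the share among genes of that depth.

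Prkcb (chromosome 7, positions 122288751 to 122634402 in GENCODE vM21 on GRCm38) was the lowest member. Its level was 163 CPM in B6.SLE123 and 234 CPM in control B cells. Over hashtag populations the lowest, median and highest levels were 146, 164 and 192 CPM in the B6.SLE123 library and 215, 228 and 258 CPM in the control library. The log2 ratio was -0.52 (-0.58 to -0.46). All B6.SLE123 populations were below the control populations.

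Ppp3ca and Nfatc3 had the next lowest ratios. Ppp3ca had 131, 149.5 and 161 CPM (lowest, median and highest) in B6.SLE123 populations and 185, 199.99 and 226 CPM in control populations, a log2 ratio of -0.46 (-0.52 to -0.40). Nfatc3 had 122, 155 and 179 CPM against 192, 205 and 213 CPM, a log2 ratio of -0.43 (-0.49 to -0.37). For both the populations of the libraries did not overlap. Nfatc2 (log2 ratio -0.33, -0.54 to -0.12) and Ppp3r1 (-0.19) overlapped. Nfatc1 did not share the direction, with 111 CPM against 98.0 CPM (log2 ratio 0.19, 0.11 to 0.26), and it ranged from 72.1 to 142 CPM over B6.SLE123 populations. Without B6.SLE123 C0303, which held the lowest Nfatc1 value, its log2 ratio was 0.29.

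Bank1 (chromosome 3, 136053363 to 136326066) had 412, 466 and 499 CPM over B6.SLE123 populations and 554, 590.3 and 603 CPM over control populations, a log2 ratio of -0.34 (-0.38 to -0.31). Pik3ap1 had 73.0, 78.7 and 82.9 CPM against 92.2, 98.8 and 107 CPM, a log2 ratio of -0.34 (-0.42 to -0.25). Ptprc had 613, 647 and 721 CPM against 756, 796 and 880.3 CPM, a log2 ratio of -0.29 (-0.32 to -0.26). In Bank1, Pik3ap1 and Ptprc every B6.SLE123 population was below every control population. Pik3r1 (-0.36), Mapk3 (-0.41), Fyn (-0.28), Vav2 (-0.28), Btk (-0.27), Pik3cd (-0.26), Malt1 (-0.25), Rasgrp3 (-0.24) and Plcg2 (-0.23) were lower with populations that overlapped.

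In 3 members every B6.SLE123 population was above every control population. Grb2 had 429.7, 486 and 546 CPM against 347, 379.7 and 409 CPM in control populations, a log2 ratio of 0.36 (0.32 to 0.40). Akt1 had 41.0, 46.8 and 54.5 CPM against 28.0, 35.0 and 38.2 CPM, a log2 ratio of 0.47 (0.34 to 0.60). Blnk had 276 to 307 CPM against 259 to 276 CPM, with a log2 ratio of 0.13 (0.08 to 0.18), so the edges of the libraries nearly touched. Of the receptor and its kinases, Cd79b had a log2 ratio of -0.10 (-0.11 to -0.08), Syk -0.08 (-0.13 to -0.04) and Blk -0.01 (-0.06 to 0.04), nearer to 0 than Btk and Fyn above. Cd79a, which set the gate, had 3051 to 3687 CPM in B6.SLE123 populations and 3821 to 4172 CPM in control populations, which did not overlap (log2 ratio -0.25). Under a B cell gate that used no member its log2 ratio was -0.25 (-0.26 to -0.23) and that of Ms4a1 -0.15 (-0.17 to -0.12).

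Vav3 (chromosome 3), a member with few UMIs, decided the count past 1.5-fold under other settings. Its main levels were 17.6 CPM in B6.SLE123 and 13.7 CPM in control B cells, a log2 ratio of 0.36 (0.15 to 0.57). The ratio was 0.75 with cells thinned to 1000 UMIs and 0.61 with the limits on cells read as UMIs. It was then the 1 member past 1.5-fold, while 11.5% of all genes tested were in either setting. Thinning also left 3 members whose populations did not overlap (Blnk, Nfatc3 and Prkcb), against 9.03% of the 9532 genes tested in thinned cells.

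**Figure D4:**
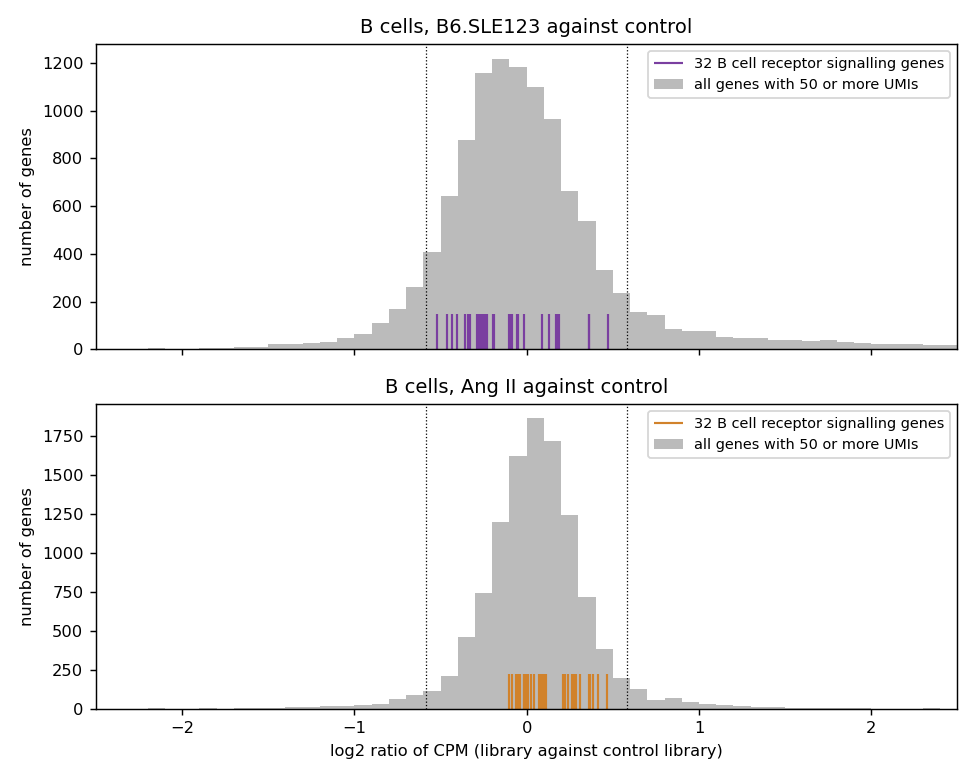
Number of genes (vertical axis) by log2 ratio of CPM in B cells (horizontal axis) for B6.SLE123 against control (top) and Ang II against control (bottom), with the 32 members as coloured ticks and dotted lines at a 1.5-fold difference. All ticks lie between the dotted lines, with a median of -0.21 in the top panel and 0.10 in the bottom panel.

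Other pathway genes did pass 1.5-fold in this comparison, 4 higher and 3 lower of 57 with enough UMIs, with a median log2 ratio of -0.16. Fos had 62.2 CPM in B6.SLE123 and 18.5 CPM in control B cells (log2 ratio 1.75, 1.60 to 1.91), Jun 199 CPM and 86.0 CPM (1.21, 1.13 to 1.28) and Pik3cb 2.67 CPM and 1.29 CPM (1.05, 0.42 to 1.72). The lowest were Cr2, with 224 CPM against 492 CPM (-1.13, -1.18 to -1.09), Prkce (-0.77) and the NF-kappaB gene Rel (-0.62). Cr2 is also a marker of marginal zone B cells.

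Markers of B cell subsets moved between these libraries too. The summed level of 4 follicular markers was 544 CPM in B6.SLE123 and 853 CPM in control B cells, with hashtag populations from 429.7 to 615 CPM and from 761 to 931 CPM. The 6 marginal zone markers summed to 464 and 751 CPM, the 4 transitional markers to 6514 and 7927 CPM, the 6 germinal centre markers to 282 and 54.5 CPM, the 4 B1 markers to 55.9 and 19.9 CPM and the 5 atypical B cell markers to 200.3 and 117 CPM. None of these subset genes was at 0 in the B cells of either library. The transitional, B1 and atypical lists were higher in NK cells than in B cells of both libraries. In B6.SLE123 and control NK cells they summed to 11323 and 12737.5 CPM, 287 and 370 CPM, and 806 and 903 CPM. The germinal centre list was also higher in control NK cells (65.5 CPM). These sums thus do not mark B cell subsets alone. In B cells the 8 plasma cell markers summed to 1962 and 698 CPM. Of markers of other cell types, the 8 of T cells summed to 4.94 and 2.83 CPM with Cd3e (left out by the gate) and Bcl11b at 0 in both, those of monocytes and macrophages to 15.9 and 4.98 CPM with Lyz2 (left out by the gate) at 0, those of erythroid cells to 162 and 34 CPM (medians over populations 155 and 19.8 CPM) with Alas2 at 0 in the control library, and those of neutrophils to 162 and 92.3 CPM. The monocyte and macrophage sum was 47.3 CPM in B6.SLE123 C0303 and had a median of 7.44 CPM over the B6.SLE123 populations, against 4.62 CPM over the control populations. Their part in the members' differences was not tested. In B cells with a UMI of Fcer2a, a follicular gene (2107 B6.SLE123 and 4186 control cells), the median log2 ratio of the members was -0.16. There Prkcb had -0.42 (-0.52 to -0.31) and Nfatc3 -0.30 (-0.42 to -0.19), both with every B6.SLE123 population below the control populations, and Grb2 had 0.45 (0.38 to 0.53) with every one above. Bank1 had -0.17 (-0.24 to -0.11) with populations that overlapped, and Akt1 had 0.25 (-0.01 to 0.50). In these cells 4 of the 32 members did not overlap, against 7.64% of 9524 genes, and Vav3 (0.70) was past 1.5-fold, against 11.5% of genes.

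The last comparison set Ang II against control B cells, to ask whether the pathway differed in this model of hypertension. No member of the 32 was past 1.5-fold, while 6.71% of 11216 genes were (4.03% higher and 2.68% lower), and 2.17% of the 6400 genes with at least the 887 UMIs of the lowest member. Small differences were mostly toward higher levels, with 23 members above and 9 below 0 and a median log2 ratio of 0.10, against 0.05 over all genes tested. Of all 11216 genes tested, 6573 were above and 4643 below 0, so this direction too was shared by most genes. With TMM scaling the median was 0.06 and 20 members were above 0, against 0.01 over all genes. This comparison shares the control library with the one before it, so their values are not independent.

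In 8 members every Ang II hashtag population was above every control population, and in none was it below. Over all genes tested 7.08% lay above, 4.81% below and 11.9% in either direction, and among genes with at least the UMIs of the lowest member 18.4% did not overlap. Blnk had 337, 352 and 360.0 CPM (lowest, median and highest) in Ang II populations and 259, 266 and 276 CPM in control populations, a log2 ratio of 0.38 (0.34 to 0.43). Bank1 had 682, 717 and 731 CPM against 554, 590.3 and 603 CPM, a log2 ratio of 0.28 (0.25 to 0.31). Bank1 was thus above the control range in the Ang II library and below it in the B6.SLE123 library.

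Btk had 131, 138 and 148 CPM in Ang II populations and 103, 114 and 119 CPM in control populations, a log2 ratio of 0.31 (0.24 to 0.38). Btk lies on the X chromosome (134542336 to 134583570), and the sexes of the libraries differed as described. Cd81 had 261, 274 and 289.8 CPM against 199, 224 and 244 CPM, a log2 ratio of 0.29 (0.24 to 0.33). The others were Vav1 (0.36, 0.28 to 0.45), Sos1 (0.41, 0.25 to 0.58) and the NF-kappaB pair Malt1 (0.26, 0.21 to 0.31) and Bcl10 (0.24, 0.16 to 0.31). Sos1 encodes an exchange factor for RAS.

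Akt1 had the highest ratio of the members at 0.47 (0.34 to 0.59), with 37.4 to 51.1 CPM in Ang II populations and 28.0 to 38.2 CPM in control populations, which overlapped. Of the 6 members that lay below the control range in the B6.SLE123 library, Bank1 lay above it here and the other 5 overlapped it. Prkcb had a log2 ratio of 0.08 (0.03 to 0.13), Nfatc3 0.01 (-0.04 to 0.06), Ppp3ca 0.11 (0.06 to 0.16), Pik3ap1 0.09 (0.02 to 0.17) and Ptprc -0.04 (-0.07 to -0.02). Grb2 had 0.02 (-0.01 to 0.06). Cd79b (-0.10, -0.12 to -0.08) and Rasgrp3 (-0.08, -0.17 to 0.00) were the lowest. Under the gate without members Cd79a had a log2 ratio of -0.12 (-0.13 to -0.11) and Ms4a1 -0.11 (-0.13 to -0.08).

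No other pathway gene passed 1.5-fold against the control library in Ang II B cells, and the median log2 ratio of the 57 was 0.10. Among the highest were Fos (0.58, 0.41 to 0.75) and Cblb (0.49), and among the lowest Pik3ca (-0.34) and Nras (-0.19). The follicular markers summed to 1049.7 CPM in Ang II and 853 CPM in control B cells, the marginal zone markers to 728 and 751 CPM, the transitional markers to 6814 and 7927 CPM, and germinal centre markers to 41.3 and 54.5 CPM. The transitional list summed to more in NK cells of these libraries (11078 and 12737.5 CPM). In B cells erythroid markers summed to 155 and 34 CPM, but the medians over hashtag populations were 23.5 and 19.8 CPM and the highest 484 and 138 CPM. Neutrophil markers summed to 257 and 92.3 CPM, with populations from 209 to 287 and from 36.7 to 154 CPM. Their part in the members' differences was not tested. In B cells with a UMI of Fcer2a (5658 Ang II and 4186 control cells) 7 of the 32 members (Cd81, Btk, Blnk, Vav1, Malt1, Bank1 and Sos1, all above) did not overlap, against 8.14% of 10354 genes, and no member was past 1.5-fold, against 5.98%.

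Members also varied among hashtag populations within a library. The highest level over the lowest was 1.22 in the control, 1.18 in the Ang II and 1.29 in the B6.SLE123 library at the median of 32 members. It was over 1.5 for 1 member in the control library (Nfatc2), 1 in the Ang II library (Vav3) and 7 in the B6.SLE123 library (Pik3r1, Sos1, Akt2, Ppp3r1, Nfatc1, Nfatc2 and Mapk3). The share over all genes was not computed, so these counts cannot be read as a trait of the members. Nfatc2, Mapk3 and Sos1 had only 376, 518 and 584 UMIs over all B6.SLE123 B cells, while Nfatc1 had 3088. How much of these ranges is counting error was not tested. Akt2 had the widest range, 24.2 to 49.7 CPM in B6.SLE123 populations. B6.SLE123 C0303 held the highest Akt2 level, and without it the log2 ratio of Akt2 against control was 0.02 in place of 0.18.

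In NK cells the same library contrasts could be read for the members with 50 or more UMIs. Without the gate genes, 2 of 23 members were past 1.5-fold in B6.SLE123 against control NK cells (Cd79b and Pik3ap1), against 11.2% of 4728 genes, and the median log2 ratio was -0.017. In Ang II NK cells 4 of 24 were (Cd79b, Pik3ap1, Nfatc2 and Akt1), against 11.9% of 5076 genes. In thinned cells the Cd79b share of NK cells lay below that of neutrophils, as given above. Pik3ap1 was 128 CPM in Ang II and 62.1 CPM in control NK cells (log2 ratio 1.05, 0.58 to 1.54) and 94.4 CPM in B6.SLE123 NK cells (0.60, 0.09 to 1.13). Akt1 was 90.6 CPM in Ang II and 55.2 CPM in control NK cells (0.72, 0.19 to 1.25). Whether these differences were unlike those in B cells was not tested.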

How the data were processed

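The deposited files hold raw counts: UMIs of each gene and each hashtag antibody for every barcode, not normalized. Per the file headers they were written by Cell Ranger 6.0.0. The submitters' processing notes name genome build mm10, and the annotation version is not given in the sources used here. Barcodes with over 200 and under 3500 genes and under 15% mitochondrial UMIs were kept (limits that the study's methods give as counts of RNA), barcodes above an Otsu threshold for several hashtags were removed as doublets, and doublets within a hashtag stayed. Counts were summed per gate and library. Library contrasts are log2 ratios of CPM over genes with 50 or more UMIs, with exact conditional 95% intervals and no test. Class contrasts used edgeR 4.0.16 in R 4.3.3 (quasi-likelihood, TMM, filterByExpr, library as a block, 9 sums), and DESeq2 1.42.0 as an alternative. The libraries are the replicates there, although they differ in strain, sex and treatment. With library as a block, p-values set each class difference against how much it varied between libraries. Standard errors (SE) of class contrasts are the size of the log2 fold change over the square root of the F statistic. They are approximate and do not reproduce every p-value. Scripts were tested on simulated counts. For B6.SLE123 against control B cells (10187 genes) the intervals covered 95.1% to 95.5% of true ratios. Those counts were drawn with counting error only, which the intervals assume, so this checks the code and not coverage in the real libraries. For B against NK cells 54.2% of 2-fold (7731 genes) and 97.4% of 4-fold changes (7717 genes) that passed the filter were recovered. Of the calls 10.3% and 4.50% were false. These counts gave every class the B cell means and no library effect, and B against plasma cells was not simulated. All 34 members were named by rule. Other pathway genes named are the 3 most extreme in a direction, except that the highest against plasma cells are not printed because they rest on few plasma cell UMIs. Some genes that this rule would name are not reported here. Members and lists were chosen with earlier results of these data known. Gene positions are from GENCODE vM21. Alternatives are given in the closing section.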

Additional observations from a re-analysis of the deposited data

How the results depend on the processing

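No paired analysis was possible because each group is 1 library, and hashtags are not mapped to conditions. The count of members past 1.5-fold was 0 in both library contrasts under most settings. It became 1 (Vav3) for B6.SLE123 with limits read as UMIs (1), with cells thinned to 1000 UMIs (1) and in B cells with a Fcer2a UMI (1), and for Ang II with thinned cells (1, log2 ratio 0.66). Leaving out any hashtag population left it at 0. Members whose B6.SLE123 populations did not overlap the control fell from 9 to 3 with thinning and to 4 in B cells with a Fcer2a UMI, both settings chosen after seeing the data, as were all others for this count (7 to 9). For B6.SLE123 the share of all genes tested was 7.64% to 20.3% over these settings. For Ang II the count was 6 to 9 in place of 8, against 6.46% to 12.0% of all genes tested. It was 6 with thinned cells (Cd81, Btk, Blnk, Malt1, Bank1 and Ppp3r1), where Vav1, Bcl10 and Sos1 overlapped. Calls against NK cells stayed within 20 to 25 (20 without the library block, 21 with DESeq2), and were 18 to 25 when a library was left out. Calls against plasma cells were 8 with limits read as UMIs (1, 0 and 9 plasma cells), 9 with thinned cells (3, 2 and 26 plasma cells) and 10 to 14 without a library, the lowest without B6.SLE123, and 16 to 18 otherwise. Values that changed sign against NK cells were those of Vav1 (-0.032 with several hashtags kept, -0.021 thinned, -0.031 with DESeq2, -0.016 to 0.030 when a library was left out), Nfatc1 (0.023 without a filter, -0.15 to 0.032 when a library was left out) and, when a library was left out, Nfatc2 (-0.62 to 0.032), Nfatc3 (-0.32 to 0.020) and Pik3ap1 (-0.077 to 0.36). None of these was called in the main comparison. Against plasma cells they were Cd81 (13.63, fitted to 0 Cd81 UMIs in plasma cells and so no measure of size), Rasgrp3 (0.78), Akt2 (-0.57), Mapk3 (-0.23) and Ppp3r1 (-0.086) with limits read as UMIs, Rasgrp3 (0.53) thinned, Vav3 (0.014 without a filter) and, when a library was left out, Vav3 (-1.54 to 0.87) and Bcl10 (-0.082 to 0.26). Of these Cd81 was the 1 called value. The control and Ang II libraries held 9 and 15 plasma cells in the main comparison, and the cause of these changes was not tested.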
